A study of Mus musculus with 30 samples.

Results

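Thymocytes are the immature T cells of the thymus, an organ that lies in the chest close below the thyroid. They were followed here in thyroid RNA through 34 genes, which were matched by symbol among the 50686 genes of the count files. All 34 were found. The genes fall into 6 roles: 6 genes of immature thymocytes, 5 of mature T cells, 8 of the antigen receptor and its co-receptors, 4 of receptor signalling, 4 transcription factors and 7 other surface and adaptor genes. They were chosen by their values in the 2-month comparisons of FAD4T with wild-type mice, so those comparisons are given as a description, and nothing is read from a call made in them. The 8-month and the ageing comparisons did not choose them and were tested.

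The study profiled thyroids of C57BL/6 mice by poly(A) RNA sequencing, 3 mice in each of 10 groups. FAD4T males, wild-type males, FAD4T females and wild-type females were each taken at 2 and at 8 months of age. The ageing groups were wild-type males of 18 months, numbered 1 to 3, and wild-type males of 2 months numbered 4 to 6; the 2-month wild-type males numbered 1 to 3 were taken as the controls of the FAD4T males. The genotype is labelled FAD4T only, and what these mice carry is not given in the labels. Totals were 14083958 to 20256049 counts per library. Tg, the thyroglobulin gene of thyroid follicle cells, was at 37082 to 303047 CPM (counts-per-million, with TMM scaling over the 30 libraries), so the labelled tissue was present in every library.

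In the thymus, progenitors cut and join the segments of their T cell receptor genes with the enzymes Rag1 and Rag2, and Dntt adds bases at the joints. A first receptor chain pairs with the stand-in chain Ptcra, and cells then carry both co-receptors, Cd4 and Cd8, before they keep a single one. Cells that pass selection switch the recombination genes off, turn on Ccr7 and Il7r and leave for blood and lymph nodes. Rag1, Rag2, Dntt and Ptcra therefore mark immature cells, while Cd3 subunits, Lck and Lat are shared by thymocytes and mature T cells.

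The start regions of members that lie next to each other are shown with those of Ptcra and Il7r, since neighbours can be compared and these genes stand for the early and the late end of the results below. Rag1 and Rag2 lie 5753 bases apart on chromosome 2 and are read towards each other, and Cd3g and Cd3d lie 1355 bases apart on chromosome 9 and are read away from each other. Each sequence is the 250 bases before the RefSeq start of the gene in GRCm38.p6, 5′ to 3′ on the gene's strand. Capitals mark matches, on either strand, to the E-box CAGCTG or CAGGTG, the RUNX motif TGTGGT, the TCF and LEF motif CTTTGA, the ETS motif GGAAGT and the GATA motif AGATAA.
Rag1, chr2:101649533-101649782, minus strand: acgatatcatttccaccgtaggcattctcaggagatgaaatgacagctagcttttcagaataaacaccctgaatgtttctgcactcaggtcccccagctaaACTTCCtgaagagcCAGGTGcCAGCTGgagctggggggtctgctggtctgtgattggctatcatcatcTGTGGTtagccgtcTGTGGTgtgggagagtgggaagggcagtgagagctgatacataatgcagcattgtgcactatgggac
Rag2, chr2:101624462-101624711, plus strand: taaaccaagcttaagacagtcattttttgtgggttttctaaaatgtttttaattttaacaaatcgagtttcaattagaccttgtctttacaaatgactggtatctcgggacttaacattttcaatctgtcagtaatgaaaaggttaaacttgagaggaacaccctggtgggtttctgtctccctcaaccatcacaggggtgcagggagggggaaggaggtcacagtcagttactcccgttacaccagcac
Ptcra, chr17:46763713-46763962, minus strand: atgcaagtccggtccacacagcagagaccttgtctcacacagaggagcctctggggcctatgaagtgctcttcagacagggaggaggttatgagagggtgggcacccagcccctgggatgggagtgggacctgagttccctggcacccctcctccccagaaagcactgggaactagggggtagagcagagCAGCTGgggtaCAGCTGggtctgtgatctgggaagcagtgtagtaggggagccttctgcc
Cd3d, chr9:44981536-44981785, plus strand: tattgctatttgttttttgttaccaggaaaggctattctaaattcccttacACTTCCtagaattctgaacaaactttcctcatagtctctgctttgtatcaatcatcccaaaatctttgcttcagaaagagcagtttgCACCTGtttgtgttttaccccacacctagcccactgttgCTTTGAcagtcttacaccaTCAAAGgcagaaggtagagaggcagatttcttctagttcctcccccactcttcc
Cd3g, chr9:44980432-44980681, minus strand: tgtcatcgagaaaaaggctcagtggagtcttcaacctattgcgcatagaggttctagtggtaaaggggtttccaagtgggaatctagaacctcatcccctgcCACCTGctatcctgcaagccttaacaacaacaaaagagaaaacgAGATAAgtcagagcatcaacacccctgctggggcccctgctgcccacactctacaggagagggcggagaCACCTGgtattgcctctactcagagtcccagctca
Il7r, chr15:9529877-9530126, minus strand: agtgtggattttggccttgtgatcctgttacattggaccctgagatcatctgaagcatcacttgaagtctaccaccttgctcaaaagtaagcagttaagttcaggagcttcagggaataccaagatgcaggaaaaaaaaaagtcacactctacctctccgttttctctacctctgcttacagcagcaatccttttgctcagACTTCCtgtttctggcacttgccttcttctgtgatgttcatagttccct

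RefSeq start regions were matched for 23 of the 34 members. An E-box lay in 10 of the 23 (43.5%), against 27.4% of the 27025 genes in the table, and the ETS motif in 9 (39.1%), against 19.99%. The TCF and LEF motif lay in 4 (17.4% against 14.1%), the GATA motif in 3 (13.04% against 10.3%) and the RUNX motif in 2 (8.70% against 14.2%). The Rag1 region held 2 E-boxes, 2 RUNX motifs and 1 ETS motif, while Rag2, its neighbour, held none of the 5 motifs in these 250 bases. Matches of letters are a description of these windows.

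Levels of most of the 34 genes differed widely between libraries of the same group. Rag1 (ENSMUSG00000061311, chromosome 2, 101638282 to 101649501 in GRCm38) had 30 or more counts in 8 libraries and at most 4 counts in the other 22. In FAD4T males of 2 months it stood at 0.11, 66.0 and 15.0 CPM in mice 1, 2 and 3, and in FAD4T females of 2 months at 20.6, 28.8 and 0.175 CPM. Mice 2 and 3 of the males and 1 and 2 of the females were thus high, and the remaining mouse of each sex lay within the range of wild type. In wild-type mice of 2 months, males numbered 1 to 3 had 0.056, 0.258 and 0 CPM of Rag1 and females had 1.69, 0 and 0 CPM. At 8 months the FAD4T males had 12.1, 0 and 0 CPM, the wild-type males 0, 0.053 and 0, the FAD4T females 0 in all 3, and the wild-type females 0, 0.067 and 2.23. The ageing groups had 0 in all 3 mice at 2 months and 0.108, 3.32 and 0 CPM at 18 months. High Rag1 therefore occurred in both genotypes, both sexes and at each age, with the 5 highest libraries all FAD4T. In bulk tissue, fewer cells of a type and less RNA per cell cannot be told apart.

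**Figure D1:**
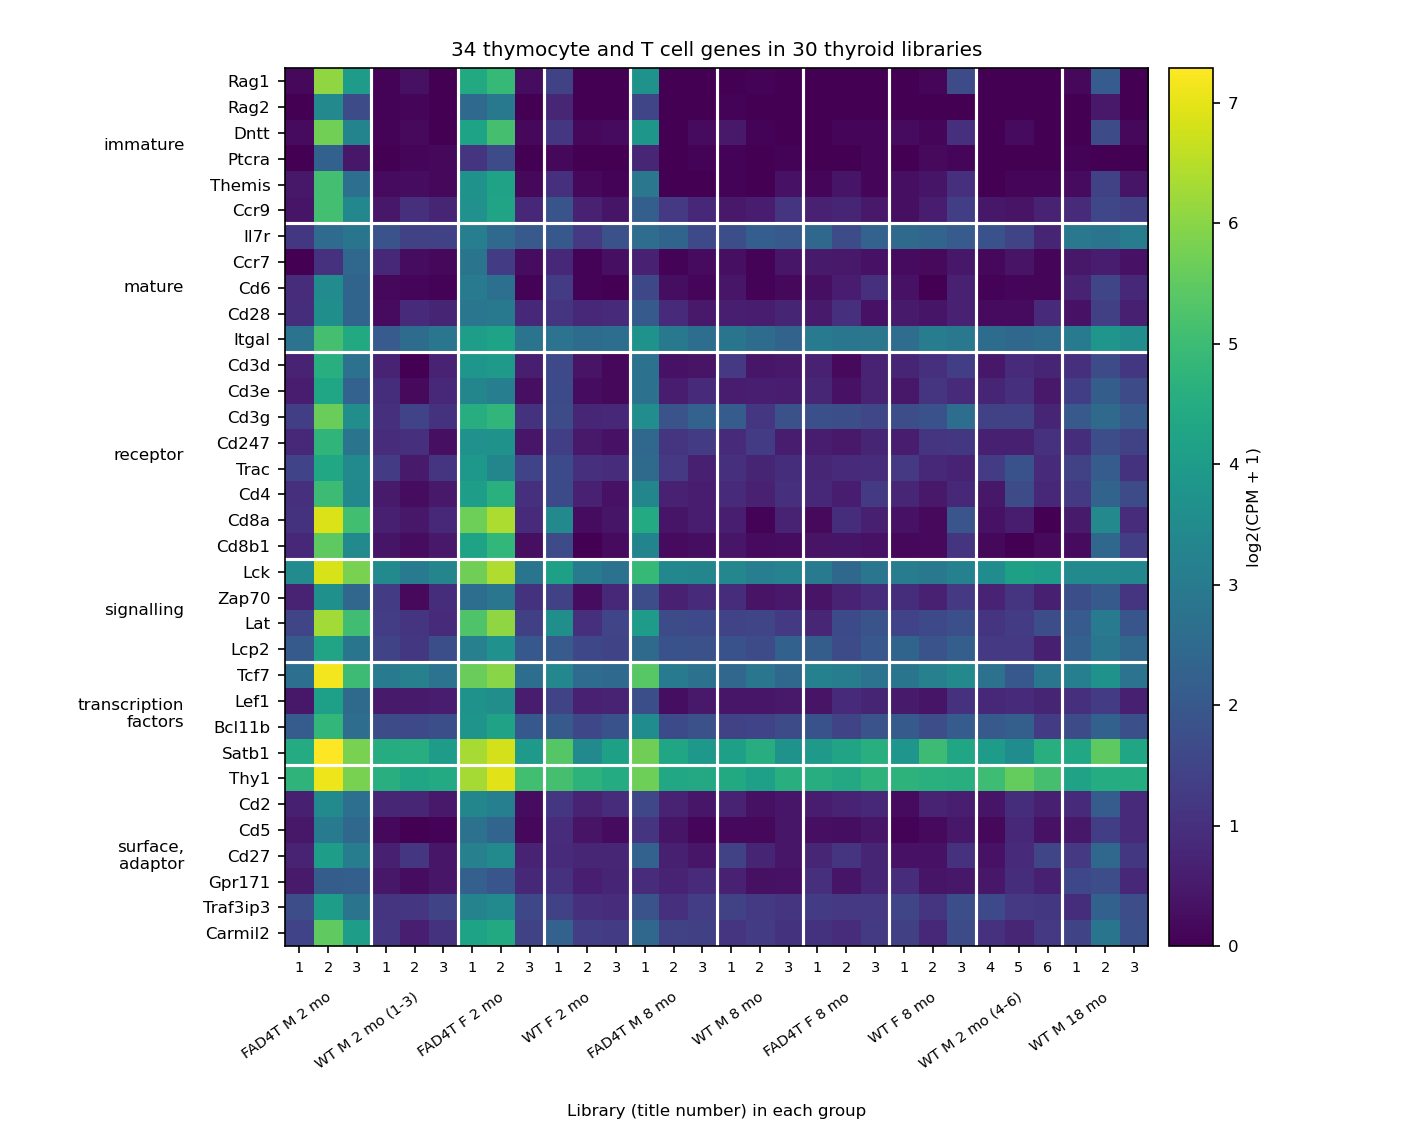
Level of each of the 34 genes (rows, by role) in each of the 30 libraries (columns, by group), as log2(CPM + 1); M and F are males and females. Columns 2 and 3 of FAD4T males and 1 and 2 of FAD4T females of 2 months are bright for nearly all genes, column 1 of FAD4T males of 8 months less so, and Thy1, Satb1, Lck and Tcf7 keep a visible level in every column.

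The other recombination and pre-receptor genes followed the same libraries. Dntt, the enzyme that adds bases at receptor joints, had 52.4 and 8.86 CPM in FAD4T males of 2 months 2 and 3, 17.7 and 34.4 CPM in FAD4T females of 2 months 1 and 2, and 13.4 CPM in FAD4T male of 8 months 1. It reached 1.24 CPM in wild-type female of 2 months 1, 2.23 CPM in wild-type male of 18 months 2 and 0.985 CPM in wild-type female of 8 months 3, and at most 0.416 CPM in the other 22. Rag2 had 9.82, 2.15, 4.59, 6.66 and 1.85 CPM in the 5 highest libraries in that order. It had 0.732 CPM in wild-type female of 2 months 1, 0.422 CPM in wild-type male of 18 months 2 and at most 1 count in each of the rest. Ptcra, the partner of the first receptor chain, had 70, 7, 21, 40 and 12 counts in the 5 highest libraries and at most 2 in each of the rest. These 4 genes are near the limit of detection outside the 8 libraries, since 3 counts, the limit that a count of 0 allows, corresponded to 0.148 to 0.213 CPM.

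The co-receptors showed the same order with more counts behind it. Cd8a (ENSMUSG00000053977, chromosome 6, 71373427 to 71379173) stood at 1.1, 119 and 33.1 CPM in FAD4T males of 2 months and at 49.9, 82.2 and 0.877 CPM in the females. Wild-type males 1 to 3 had 0.558, 0.387 and 0.759 CPM and wild-type females 10.2, 0.181 and 0.34 CPM. At 8 months it was 20.8, 0.327 and 0.506 CPM in FAD4T males, 0.535, 0.053 and 0.633 in wild-type males, 0.146, 0.951 and 0.551 in FAD4T females and 0.281, 0.134 and 2.83 in wild-type females. At 18 months it was 0.432, 9.77 and 0.915 CPM against 0.283, 0.47 and 0 CPM at 2 months. Cd8b1, the partner chain of Cd8a, had 44.0 CPM in FAD4T male of 2 months 2 and at most 1.49 CPM in the 22 libraries of few Rag1 counts. Cd4 had 31.1 and 9.63 CPM in FAD4T males of 2 months 2 and 3, 15.5 and 23.7 CPM in females 1 and 2, and 9.07 CPM in FAD4T male of 8 months 1, against at most 2.19 CPM in the 22.

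Of the receptor genes, Cd3e, a signalling subunit of the T cell receptor complex, had 18.3, 3.85, 9.18, 7.75 and 5.61 CPM in the same 5 libraries and 0.113 to 2.17 CPM in the 22. Trac, the constant region of the receptor alpha chain, had 19.7, 9.96, 13.8, 9.23 and 4.71 CPM there and 0.451 to 2.59 CPM in the 22. Unlike the recombination genes, Cd3e and Trac were counted in every library. Lck, the kinase that starts receptor signalling, had 115, 55.2, 50.8, 84.2 and 28.3 CPM in the 5, and 4.48 to 16.8 CPM in the 22. Thy1, a surface protein of T cells that neurons and fibroblasts also carry, had 136, 55.6, 77.7, 123 and 49.9 CPM in the 5 and 16.2 to 46.2 CPM in the 22. Satb1, Tcf7 and Itgal likewise kept 9.89 to 30.9, 3.06 to 8.27 and 3.29 to 10.9 CPM where Rag1 had 4 counts or fewer.

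Across members, 31 of the 34 were highest in FAD4T male of 2 months 2. The exceptions were Il7r, Ccr7 and Gpr171, which were highest in FAD4T female of 2 months 1. The same 5 libraries were the highest 5 for 23 members. Together the 34 genes took 1603 CPM of the unscaled library total in FAD4T male of 2 months 2 and 560 in mouse 3. They took 784 and 1122 in FAD4T females of 2 months 1 and 2, and 341 in FAD4T male of 8 months 1. Wild-type female of 2 months 1 had 203, wild-type male of 18 months 2 had 178 and wild-type female of 8 months 3 had 111, against 66.7 to 107 in the other 22 libraries.

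How far a gene rose above its median over the 30 libraries differed between roles. The highest library exceeded the median by 21.9-fold to 377-fold for the 6 immature genes, with a median of 120-fold. For Rag1, Rag2, Dntt and Ptcra, whose medians were under 3 counts, this is a lower bound set at 3 counts (0.175 CPM). The receptor and co-receptor genes had a median of 31.3-fold, up to 214-fold for Cd8a. The 4 signalling genes had 12.4-fold, the transcription factors 16.01-fold, the surface and adaptor genes 14.9-fold and the mature T cell genes 15.5-fold. Il7r, the receptor of the survival signal interleukin 7, rose least above its median, at 2.38-fold. Gpr171 followed at 5.43-fold, then Itgal at 5.51-fold and Thy1 at 5.81-fold. These folds describe the genes that the choice of members favoured.

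Per kilobase of exon, the level that allows genes to be set against each other, the order changed between libraries. At the median of the 30 libraries Thy1 led with 7.82 CPM per kb, then Lck with 3.25, Tcf7 with 2.52 and Trac with 1.32, while Cd8a had 0.152 CPM per kb. In FAD4T male of 2 months 2, Tcf7, a transcription factor of T cell commitment, had 53.8 CPM per kb, Thy1 45.4, Lck 39.2 and Cd8a 32.7. Dntt had 24.6, Rag1 9.995 and Rag2 2.87 CPM per kb in that library.

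**Figure D2:**
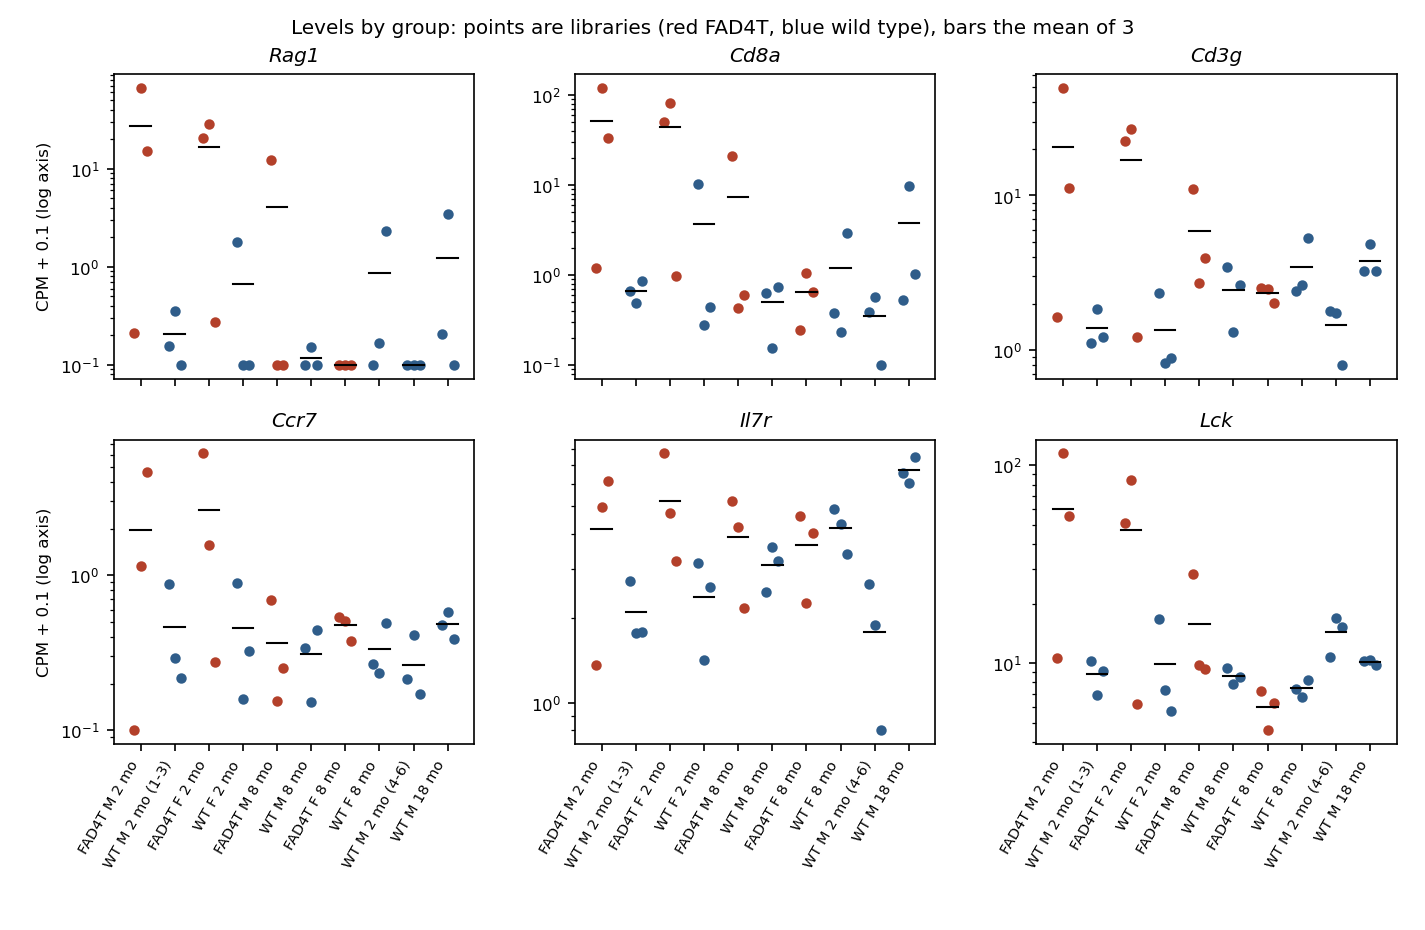
CPM + 0.1 on a log axis for Rag1, Cd8a, Cd3g, Ccr7, Il7r and Lck by group; each point is a library and each bar the mean of 3. In the FAD4T groups of 2 months Rag1 points lie both above 10 CPM and near 0, and Il7r at 18 months (5.97 to 7.37 CPM) lies above both 2-month wild-type male groups.

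Il7r, which of the 34 rose least above its median, was counted in every library. In FAD4T mice of 2 months it was at 1.27, 4.88 and 6.05 CPM in males and 7.6, 4.64 and 3.10 CPM in females. Wild-type males 1 to 3 had 2.62, 1.68 and 1.69 CPM and wild-type females 3.04, 1.33 and 2.49 CPM. At 8 months FAD4T males had 5.13, 4.14 and 2.08 CPM, wild-type males 2.38, 3.49 and 3.11, FAD4T females 4.54, 2.17 and 3.93 and wild-type females 4.78, 4.22 and 3.29. These groups overlapped within each age and sex, apart from the 2-month females, where the lowest FAD4T value lay just above the highest of wild type. Itgal, the alpha chain of a leukocyte integrin, was at 5.79, 34.2 and 20.6 CPM in FAD4T males of 2 months, against 3.29, 4.96 and 6.25 CPM, and at 15.6, 17.9 and 5.97 CPM in females, against 5.91, 4.95 and 5.26 CPM.

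Genes of mature T cells did not keep a fixed ratio to the immature ones. Ccr7, the receptor that guides mature T cells towards lymph nodes, had 19 counts beside 1204 of Rag1 in FAD4T male of 2 months 2, but 82 beside 273 in mouse 3. In CPM it was 0, 1.04 and 4.51 in FAD4T males of 2 months, 6.01, 1.47 and 0.175 in the females and at most 0.788 in any library outside those 4. Its share of the counts of both genes was 1.55% (95% exact binomial interval 0.938 to 2.42%) in mouse 2 and 23.1% (18.8 to 27.8%) in mouse 3. In FAD4T females of 2 months the share was 22.6% (19.0 to 26.6%) in mouse 1 and 4.87% (3.24 to 7.01%) in mouse 2, and in FAD4T male of 8 months 1 it was 4.72% (2.28 to 8.50%). Wild-type female of 2 months 1 had 31.8% (18.6 to 47.6%). Wild-type female of 8 months 3 had 15.0% (5.71 to 29.8%) and wild-type male of 18 months 2 had 12.7% (5.65 to 23.5%). At 2 months the intervals of the 2 high FAD4T mice of each sex did not overlap. These intervals cover counting error only. Ms4a4b, a surface gene of mature T cells, had 100 and 142 counts in the FAD4T libraries of high Ccr7 share and 47, 36 and 27 in those of low share. Aire, the regulator by which medullary thymic epithelium shows tissue proteins to thymocytes, had 33 and 75 counts against 28, 27 and 3. Mki67, a gene of dividing cells, had 100 and 330 counts there against 1032, 669 and 313. Ms4a4b, Aire and Mki67 were picked after their values were seen.

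The balance of the co-receptors varied less. Cd4 made up 20.7% (95% exact binomial interval 19.2 to 22.3%) of Cd4 and Cd8a counts in FAD4T male of 2 months 2 and 22.6% (19.7 to 25.7%) in mouse 3. It made up 23.7% (21.3 to 26.2%) and 22.4% (20.5 to 24.3%) in FAD4T females of 2 months 1 and 2. In FAD4T male of 8 months 1 it made up 30.3% (26.3 to 34.6%), an interval above those of the 4 younger mice, and 29.3% (23.5 to 35.6%) in wild-type male of 18 months 2. The 4 recombination and pre-receptor genes made up 49.6 to 59.4% of the counts of these and Cd3d, Cd3e and Cd3g in the 5 highest libraries. They made up 37.0% in wild-type female of 2 months 1, 36.5% in wild-type male of 18 months 2 and 30.1% in wild-type female of 8 months 3.

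**Figure D3:**
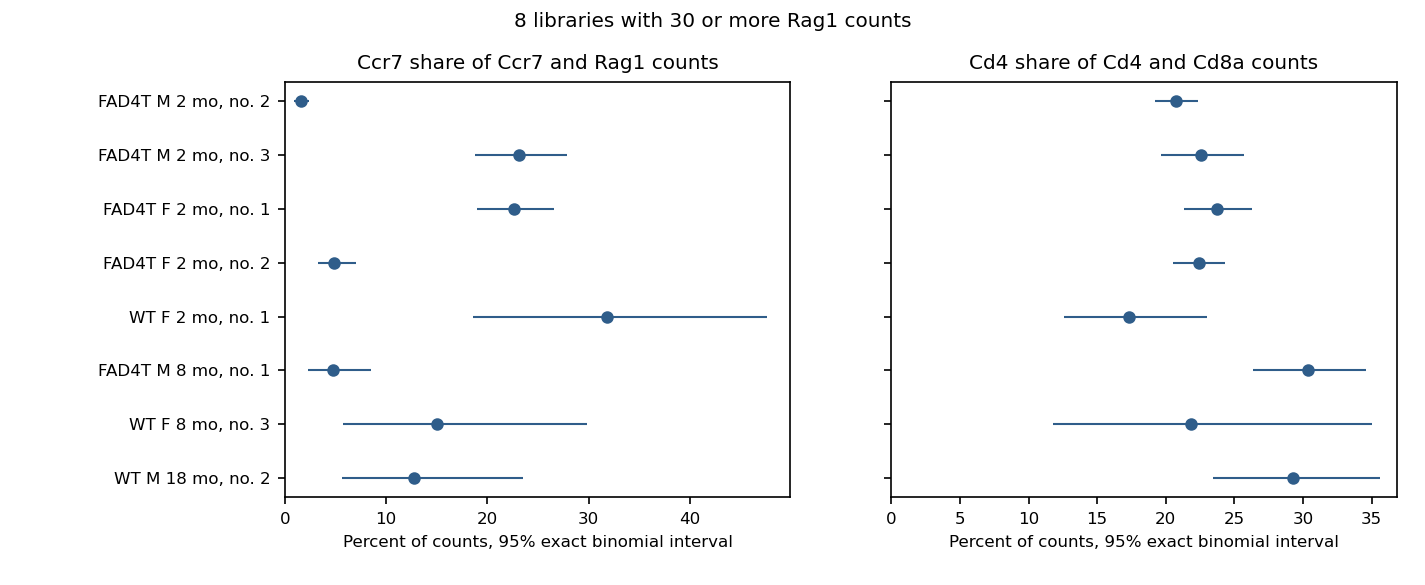
Ccr7 as a percentage of Ccr7 and Rag1 counts (left) and Cd4 as a percentage of Cd4 and Cd8a counts (right) in the 8 libraries with 30 or more Rag1 counts; bars are 95% exact binomial intervals. The Ccr7 share is 23.1 and 22.6% in 2 of the 5 highest libraries and 1.55 to 4.87% in the other 3 of those. In the wild-type libraries it is 31.8, 15.0 and 12.7%, while the Cd4 share stays within 17.4 to 30.3% in all 8.

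In the 2-month comparisons, which chose the members, all 34 had a positive log2 fold change in each sex. The median over the 34 was 3.78 in males and 2.80 in females, against 0.02 and -0.02 over the 18493 genes tested. The immature genes had medians of 6.36 in males and 4.65 in females, and the mature T cell genes 2.33 and 2.31. Rag1 was at 27.1 ± 34.6 CPM in FAD4T males (SD, n = 3) against 0.105 ± 0.136 CPM, and Cd8a at 51.0 ± 60.9 against 0.568 ± 0.186 CPM. In females Cd8a was at 44.3 ± 40.9 against 3.57 ± 5.73 CPM. The SD exceeded the FAD4T mean of both genes in males, and FAD4T mouse 1 had Rag1 within the wild-type range. Since the same values chose the members, their tests are void as evidence; the share of all genes past edgeR's test (adjusted p under 0.05) was 0.0% in either sex. Without the 5 highest libraries, which leaves 1 FAD4T mouse a group, the median of the immature genes was 0.12 in males and -1.66 in females. Those libraries were left out for their high thymocyte level, so a fall of the median was fixed by the choice.

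At 8 months, FAD4T males again had all 34 members on the higher side of wild-type males, and none passed the test. The median log2 fold change was 1.38, against 0.01 over all genes tested, and 4.33 over the 6 immature genes. A single library was high: Cd8a was 20.8 CPM in FAD4T male 1 and 0.327 and 0.506 CPM in mice 2 and 3, against 0.053 to 0.633 CPM in wild type, so the groups overlapped. Cd8b1 had 8.77, 0.163 and 0.203 CPM against 0.357, 0.159 and 0.173 CPM, and Dntt 13.4, 0 and 0.152 against 0.416, 0.053 and 0 CPM. EdgeR's test called 0 of 34 members, beside 0.0% of all genes. Dntt was at an unadjusted p under 0.05 (log2 4.81, SE 2.21), and DESeq2 made 0 calls. The fit and its filter on low counts used 24 libraries, the 2-month FAD4T ones that chose the members among them. With these 2 groups fitted alone, 21 members passed the filter and 0 were called. Without FAD4T male 1 the median of the immature genes was -1.36.

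In females of 8 months no member passed edgeR's test. Of the 34, 9 had a positive and 24 a negative log2 fold change, with a median of -0.23. EdgeR called 0 of 34 in either direction, with 0 at an unadjusted p under 0.05, beside 0.0216% of all genes. All 34 passed the filter on low counts in the joint fit of 24 libraries. With these 2 groups fitted alone, 15 members passed it and 0 were called. DESeq2 called Rag1 lower. Rag1 was at 0 counts in the 3 FAD4T females and at 0, 1 and 34 counts in wild type, so that call rests on wild-type mouse 3. The median of the immature genes was -1.41 as fitted, and -1.79 over the 4 genes that had a fold above the limit of detection, with Rag1 at its bound. The FAD4T effect at 8 months was also compared between males and females, and no member differed by an interaction test (lowest adjusted p = 0.99997 by edgeR). Rag1 was the single member with an unadjusted p under 0.05 in it.

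Between 2 and 8 months of wild-type life the members did not move past the test. EdgeR called 0 of 34 in males and 0 of 34 in females, beside 0.692% and 0.254% of all genes. An unadjusted p under 0.05 was reached by 0 in each, and DESeq2 called 0. All 34 passed the filter on low counts in the joint fit of 24 libraries. With the 2 groups fitted alone, 21 members passed it in males and 23 in females, and 0 were called. The median log2 fold change was -0.02 in males and -0.38 in females. Il7r had the smallest p of the members in each sex, with log2 0.57 (SE 0.48, adjusted p = 0.75 by edgeR) in males and 0.84 (SE 0.48, adjusted p = 0.69 by edgeR) in females. In females the immature genes depended on a mouse of each age. Their median was 0.03, was 1.94 without 2-month mouse 1 and was -1.92 without 8-month mouse 3. With Rag2, at 0 in all 8-month females, put at its bound, the median of the 5 genes above the limit of detection was -0.35.

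Wild-type males of 18 months differed from those of 2 months in several mature T cell and receptor genes. Of 34 members, 25 passed the filter on low counts, and Rag1, Rag2, Dntt, Ptcra, Themis, Ccr7, Cd28, Cd8a and Cd8b1 did not. A gene that is low at 2 months could pass only through the 18-month mice. Cd6 and Ccr9 did so, since neither reached the minimum (0.553 CPM) as counts over the library total in any 2-month mouse, so they are given as values with no test. Of the 25, 13 reached it in all 3 of the 2-month mice, and counts over the 25 are a description. EdgeR called 10 higher, Cd6 and Ccr9 among them, beside 17.1% of all genes, and 1 lower, beside 18.8%. Of these 11 calls, 6 were members that reached the minimum in all 3 of the 2-month mice: Il7r, Itgal, Cd3g, Lat, Carmil2 and Thy1. DESeq2, run on all 34 without edgeR's filter on low counts, called 12 higher and 1 lower. Log2 fold changes were positive for 23 of the 25, with a median of 1.21 against -0.01 over the 16283 genes tested.

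Il7r (ENSMUSG00000003882, chromosome 15, 9506161 to 9529876) was at 6.49, 5.97 and 7.37 CPM at 18 months and at 2.54, 1.80 and 0.702 CPM at 2 months. The groups did not overlap, and Il7r rose by log2 1.94 (SE 0.42, adjusted p = 0.00841 by edgeR). Lcp2, an adaptor downstream of the T cell receptor that other blood cells also use, was at 3.73, 6.21 and 4.52 CPM against 1.30, 1.33 and 0.561 CPM. Lcp2 rose by log2 2.15 (SE 0.41, adjusted p = 0.00508 by edgeR), but it passed the filter only with the help of the 18-month mice. Itgal was at 7.19, 12.8 and 10.9 CPM against 4.92, 4.39 and 4.91 CPM, a rise of log2 1.10 (SE 0.26, adjusted p = 0.0108 by edgeR). Cd6, a T cell adhesion receptor, had 12, 31 and 13 counts at 18 months and 1 count in each mouse at 2 months. The ratio of its summed counts per total was 16.7, given as a value with no test.

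Several receptor and signalling genes also rose. Cd3e was at 1.57, 3.44 and 2.17 CPM against 0.678, 1.02 and 0.421 CPM (log2 1.74, SE 0.49, adjusted p = 0.0232 by edgeR). Cd3g was at 3.13, 4.76 and 3.14 CPM against 1.70, 1.65 and 0.702 CPM (log2 1.42, SE 0.42). Lat, the membrane scaffold of receptor signalling, was at 3.24, 7.12 and 2.86 CPM against 1.13, 1.41 and 2.31 CPM (log2 1.44, SE 0.46). None of these groups overlapped. Zap70, the kinase recruited to the Cd3 chains, was at 2.38, 3.2 and 1.2 CPM against 0.622, 1.18 and 0.561 CPM (log2 1.51, SE 0.51). Cd3e, Zap70 and Lcp2 reached the filter's minimum in 2 of the 3 mice of 2 months. Each therefore passed the filter only with the help of the 18-month mice, which limits its test. Ccr9, a homing receptor of thymocytes and gut T cells, had 16, 32 and 28 counts at 18 months and 7, 4 and 9 at 2 months. Carmil2, an actin regulator in T cell costimulation, rose by log2 1.71 (SE 0.53), from 1.07, 0.705 and 1.33 CPM to 1.84, 6.15 and 2.40 CPM.

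The change was not shared by all members. Trac was at 1.68, 3.32 and 1.09 CPM against 1.41, 2.59 and 0.842 CPM, with overlapping groups (log2 0.31, SE 0.55, adjusted p = 0.691 by edgeR). Bcl11b, a transcription factor of T cell commitment, had log2 0.03 (SE 0.43, adjusted p = 0.96 by edgeR). Lck was at 10.1, 10.3 and 9.66 CPM against 10.6, 16.8 and 15.2 CPM (log2 -0.51, SE 0.21, adjusted p = 0.0818 by edgeR). Thy1 was at 17.5, 22.0 and 21.9 CPM against 31.4, 46.2 and 34.02 CPM, and fell by 0.88 on the log2 scale (SE 0.18, adjusted p = 0.00728 by edgeR). Of the 4 transcription factors 0 passed edgeR's test, with 0 at an unadjusted p under 0.05, 0 called by DESeq2 and a median of 0.52, while without the filter on low counts edgeR called Tcf7 higher.

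The number of calls changed with 1 mouse. Mouse 2 of 18 months is the library with thymocyte genes, at 55 counts of Rag1, 37 of Dntt and 162 of Cd8a, while mice 1 and 3 had 2 and 0 of Rag1, 0 and 2 of Dntt and 8 and 16 of Cd8a. Without it 4 members were called higher, Cd6, Il7r, Itgal and Lcp2. Of these, Cd6 passed the filter only through the 18-month mice, so its call is no evidence. Lcp2 passed it in the main fit only with their help. Il7r stood at log2 2.04 (adjusted p = 0.0176 by edgeR). The other calls were lost without mouse 2, with the log2 fold change of Cd3e at 1.42, Cd3g at 1.23, Zap70 at 1.21, Carmil2 at 1.04 and Lat at 0.94. The adjusted p of these 5 by edgeR ran from 0.0864 for Cd3e to 0.15 for Zap70. Thy1 was still lower without it (log2 -0.90, adjusted p = 0.0205 by edgeR). Il7r and Lcp2 were called under each of the 11 alternatives run, with Il7r at log2 1.6 to 2.38 and Lcp2 at 1.41 to 2.37. The limit that the filter sets on Lcp2 holds here too, while Il7r reached the minimum in all 3 of the 2-month mice. Each of the 3 young mice also counted: 5 to 6 members were called higher when mouse 4, 5 or 6 was left out. Cd6 was among them each time.

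The 2-month wild-type males numbered 4 to 6 stood apart from those numbered 1 to 3. With numbers 1 to 3 as the reference, 7 members were called higher by edgeR, Cd3g, Cd4, Cd6, Gpr171, Il7r, Lat and Lcp2, and none lower. An unadjusted p under 0.05 was reached by 13 in either direction. Itgal was not called against numbers 1 to 3 (log2 1.10, adjusted p = 0.0655 by edgeR), nor were Cd3e, Zap70, Carmil2 and Ccr9. Cd4, Cd6 and Gpr171 had 8 counts or fewer in each of males 1 to 3, under the filter's minimum. They passed the filter only through the 18-month mice, so their calls are no evidence. DESeq2 was not run with that reference. Thy1 then had log2 -0.02 (adjusted p = 0.966 by edgeR), since numbers 1 to 3 had 22.8, 18.6 and 21.1 CPM. Over all genes, calls went from 2782 to as few as 533 higher and from 3058 to as few as 326 lower with the reference exchanged or pooled. With numbers 4 to 6 as the reference for wild-type males of 8 months, 19 members were tested. Lcp2 was called higher and Lck and Thy1 lower, where none was called against numbers 1 to 3. Calls over all genes in this comparison also moved with the settings, from 78 higher and 50 lower to as many as 2574 and 2247. Nothing about the members is read from these calls. What separates both sets of young males is not in the labels and was not tested.

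Of 36 other T lineage genes, 28 were tested with age in the ageing groups, and 6 were called higher and 4 lower, with a median log2 fold change of 0.35 against -0.01 over all genes tested. All genes were called higher at 17.1% and lower at 18.8%, so these counts are not a result about the list. Trdc, the constant region of the delta chain of gamma delta T cells, was at 5.78, 2.89 and 4.46 CPM at 18 months against 0.961, 0.47 and 0.772 CPM, a rise of log2 2.54 (SE 0.42, adjusted p = 0.00291 by edgeR). The groups did not overlap, and mouse 2, highest in Rag1, was the lowest of the 18-month mice in Trdc. The 2-month males numbered 1 to 3, not part of this test, had 0.949, 0.645 and 0.701 CPM of Trdc. Grap2 and Rasgrp1, an adaptor and a Ras activator of receptor signalling, rose by log2 2.09 (SE 0.42) and 2.13 (SE 0.45). In males 4 to 6 Trdc had 17, 6 and 11 counts, Grap2 12, 9 and 5, and Rasgrp1 24, 7 and 7. None of these genes reached the filter's minimum in every 2-month mouse, so each passed the filter only with the help of the 18-month mice. Against males 4 to 6 Notch1, the receptor that commits progenitors to the T lineage and acts in many epithelia, rose by log2 1.69 (SE 0.26), and Tcf12, a broadly expressed E protein, by 0.82 (SE 0.13). The 18-month values of both overlapped those of males 1 to 3: Notch1 was at 62.4, 58.1 and 73.5 CPM beside 44.2, 74.3 and 38.7 CPM, and Tcf12 at 81.1, 71.5 and 74.1 beside 78.2, 87.4 and 65.5 CPM. Klf2, a factor of naive T cells and of endothelium, fell by 1.36 on the log2 scale (SE 0.12, adjusted p = 7.86e-04 by edgeR). Between 2 and 8 months in wild-type males, 2 of 35 were called lower, beside 0.692% of all genes called in either direction: Notch3 fell by 0.93 (SE 0.17, adjusted p = 0.0117 by edgeR) and Ets1 by 0.62 (SE 0.14, adjusted p = 0.0355 by edgeR) on the log2 scale. That reference is males 1 to 3, and Ets1 was at 44.7, 42.1 and 43.9 CPM at 8 months beside 47.9, 37.2 and 50.4 CPM in males 4 to 6, which overlap. In the 2-month comparisons, Cd69, an activation and retention marker, had log2 3.13 (SE 0.87) in males and 3.48 (SE 0.90) in females, given as a description, since these comparisons chose the members.

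Transcripts of other cells also differed between these libraries. Tg was at 76573, 55148, 66299 and 37082 CPM in the 4 high FAD4T libraries of 2 months and 48436 CPM in wild-type female of 2 months 1, below its 98217 to 303047 CPM in the other 25. The latter library also held 2834 CPM of 5 liver genes, the highest sum of the 30. Some genes of thymic epithelium, the cells that nurse thymocytes, were high where thymocyte genes were. Prss16, a protease of cortical thymic epithelium, had 91.1 and 70.6 CPM in FAD4T males of 2 months 2 and 3, 97.3 and 86.2 CPM in FAD4T females 1 and 2, 24.5 CPM in FAD4T male of 8 months 1 and 13.5 CPM in wild-type male of 18 months 2. Psmb11, the thymus form of a proteasome subunit, had 8.78, 3.30, 7.11, 7.32, 7.52 and 2.23 CPM in these 6 libraries. Both were also high where Rag1 was not. Wild-type male of 2 months 1 had 574 counts of Prss16, 73 of Psmb11, 198 of Tbata and 422 of Krt5 beside 1 count of Rag1 and 10 of Cd8a, and FAD4T female of 8 months 2 had 113 of Prss16 and 22 of Psmb11 beside 0 of Rag1. In these libraries the epithelial genes and the thymocyte genes did not go together. Prss16, Psmb11, Tbata and Krt5 were picked after their values were seen, and the most abundant genes of that list, Cldn3 (110 to 396 CPM) and Ly75 (8.89 to 34.4 CPM), were present throughout. Foxn1, the master regulator of that epithelium, was at 3.16 to 6.75 CPM in the 5 highest libraries and 1.90 to 6.59 CPM in the 22, and Trp63 at 13.4 to 23.1 against 15.99 to 28.5 CPM, so neither set these libraries apart. Foxn1 and Trp63 too were named after their values were seen. The part of these differences in the results was not tested.

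**Figure D4:**
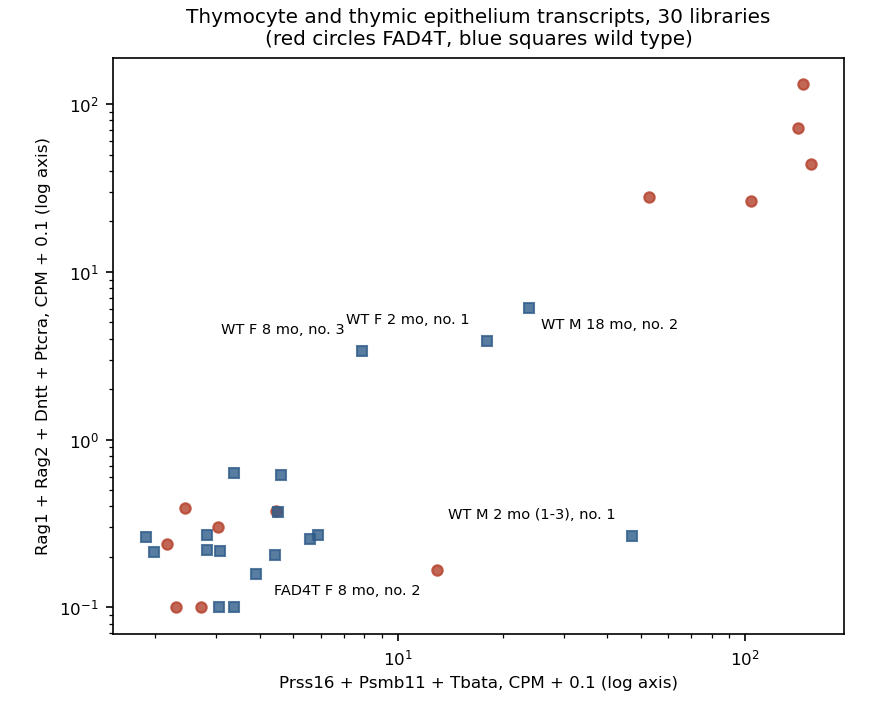
Sum of Rag1, Rag2, Dntt and Ptcra against the sum of Prss16, Psmb11 and Tbata, as CPM + 0.1 on log axes, in the 30 libraries. The 5 FAD4T libraries at the upper right hold 26.4 to 132 CPM of the thymocyte genes and 52.9 to 154 CPM of the epithelial genes, and wild-type male of 2 months 1 holds 0.168 and 47.2 CPM.

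The summed level of the whole list of 11 thymic epithelium genes was 231 to 520 CPM in FAD4T males of 2 months. It was 224 to 367 CPM in wild-type males 1 to 3, and 235 to 512 against 233 to 280 CPM in females. Cldn3, the most abundant gene of this list and present in every library, made up a large part of that sum. Of the lymph node stroma genes, Ccl21a was at 0 in all libraries, and Cxcl13 and Fcer2a, its most abundant, gave most of its sum, which was 46.3 to 97.6 CPM in FAD4T females of 2 months and 34.1 to 84.1 CPM in wild type. The 8 B cell genes summed to 34.1 to 58.7 CPM in FAD4T males of 2 months and 19.5 to 25.4 CPM in wild-type males. The 10 proliferation genes summed to 59.8 to 235 against 69.8 to 81.4 CPM in these groups. In the ageing groups, B cell sums were 42.3, 462 and 70.4 CPM at 18 months, of which Ighm gave 30.3, 445 and 57.2, against 39.5, 38.9 and 59.9 CPM at 2 months. Myeloid sums were 238, 336 and 259 against 226, 275 and 132 CPM, and the 8 NK and cytotoxic genes gave 2.70, 5.97 and 3.60 against 3.11, 5.09 and 2.66 CPM. The part of these cells was not tested either.

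Some members share their position with other genes, and the counts carry no strand. Of the 34, 14 overlap another annotated gene. B230118H07Rik, which overlaps Rag1 and Rag2, reached 774 counts, Acd over Carmil2 921, Pou2f1 over Cd247 534, Slc6a20a over Ccr9 225 and A130010J15Rik over Traf3ip3 202. Counts of these members are uncertain where exons overlap. Trac, Trbc1 and Trbc2 count constant regions only, and the latter pair are near-identical copies.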

How the data were processed

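Poly(A) RNA of 30 thyroids was sequenced as paired ends after dUTP library preparation, which keeps the strand, per the labels' protocols. The authors deposited 1 count file per library, in which each gene has a whole number of read pairs, made with featureCounts 1.6.0 over exons of Ensembl release 88 (GRCm38) with no strand option, per the file headers. The build GRCm39 and the tools StringTie 1.3.4d, HISAT2 2.0.4 and cutadapt 1.9 appear in the submitters' processing notes and differ from the headers, so coordinates are those in the count files. Groups came from the titles. Titles number the 2-month wild-type males 1 to 6, and 4 to 6 were taken as the young ageing group.

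From the counts, tests used edgeR 4.0.16 in R 4.3.3: TMM, filterByExpr with a minimum count of 10, robust glmQLFit, glmQLFTest and Benjamini-Hochberg adjustment over all genes at 0.05, with a prior count of 0.125. The 24 libraries of the FAD4T groups were fitted together (18493 genes, 16 residual degrees of freedom) and the 6 ageing libraries apart (16283 genes, 4). FAD4T was set against wild type at both ages of either sex, and wild type at 8 and at 18 months against 2 months. SE is the log2 fold change divided by the square root of F. CPM per library were scaled by TMM over all 30. The code was tested on simulated data. Of the files' genes, 310 had no symbol; 0 library pairs were identical.

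The members and gene lists were chosen with earlier results of these data known. Values were given in full for 14 members and for any that passed in a comparison that did not choose them, for up to 6 other T lineage genes by smallest p, and for the 2 most abundant genes of other-cell lists; exceptions are named. The settings varied were the tool (DESeq2 1.42.0), the scaling (size factors), the filter (none), fits of the compared groups alone, each mouse left out, the title number as a block, the 5 highest libraries left out and the other 2-month reference. In FAD4T against wild-type males of 8 months the same-number correlations were 0.291, 0.325 and 0.401. This was the 1 comparison with every pair over 0.1. The labels do not pair mice by title number, and no pairing is read from these values. Some genes of these lists are not reported here.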

Additional observations from a re-analysis of the deposited data

How the results depend on the processing

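Counts limit Rag1, Rag2, Dntt and Ptcra, which had under 3 counts in most libraries, and 3 mice a group limit every test. Members called higher at 18 months were 4 to 10 when each mouse was left out, Cd6 among them each time. Members called lower were 1 to 2, and 0 with references 1 to 3 or 1 to 6. The mature median (1.94) rested on the 3 of 5 genes tested, Cd6, Il7r and Itgal, and is the value of Il7r. It was 1.6 to 2.38 with a mouse left out. For 8 against 2 months in males, reference 4 to 6 gave 1 member higher and 2 lower of 19 tested, and a mature median of 0.47. Over the settings of that comparison, calls over all genes reached 2574 higher and 2247 lower. Fits of the compared groups alone gave immature medians of -0.028 there and 1.48 for FAD4T males of 8 months, and mature medians of 0.25 for 8 against 2 months in females and -0.087 for FAD4T females of 8 months. DESeq2 called 1 member lower in FAD4T females of 8 months. The 5 highest libraries were also left out, which leaves 1 FAD4T mouse a group at 2 months, assumed to vary like the others. Immature medians were then 0.12 and -1.66 and mature medians 0.26 and -0.28 at 2 months in males and females. The immature median was -1.81 in males of 8 months. Lower immature medians were fixed by that choice, which was made on the thymocyte level.

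Calls in the 2-month FAD4T comparisons, whose values chose the members, support nothing and are listed for the processing alone. There DESeq2 called 22 members higher of 91 genes in males and 4 of 129 in females. Leaving out each mouse gave 0 to 7 members of 0 to 32 genes in males, the most without FAD4T male 1, and 0 to 21 of 0 to 1178 in females, the most without FAD4T female 3. With each mouse left out, immature medians were 4.30 to 6.92 and 3.82 to 7.03 there, -1.36 to 5.11 and -2.26 to -0.97 in males and females of 8 months, and -0.94 to 0.055 and -1.92 to 1.94 for 8 against 2 months in males and females. Mature medians were 2.04 to 2.88 and 1.17 to 2.81 for FAD4T males and females of 2 months, 0.07 to 0.55 for FAD4T females of 8 months, and 0.037 to 0.42 and -1.20 to 0.66 for 8 against 2 months in males and females.

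The title number as a block changed no member call. The block fit gave 0 members in each of the 6 comparisons of the FAD4T set. Same-number correlations there ran from -0.411 to 0.462 over 18 pairs, 9 of them over 0.1. The block fit was not possible for the ageing groups because their mice share no numbers. None of the 11 members called at 18 months changed sign under the 11 alternatives of that comparison. The cause of these differences was not tested.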
